A study of Homo sapiens with 7 samples.

Results

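The respiratory chain of the inner mitochondrial membrane passes electrons from NADH (complex I) and succinate (complex II) through complex III to oxygen at complex IV, and the proton gradient built on the way drives ATP synthase (complex V). Most subunits are encoded in the nucleus and imported, while a small core is encoded by mitochondrial DNA. Heart muscle depends on this pathway for nearly all of its ATP, and cardiac maturation is known for a rise in its content and for a switch of some complex IV subunits to muscle isoforms. Here the nuclear genes for these subunits were followed in human cardiomyocytes after knockdown of MYH7B. The genes were chosen by name (the NDUFA, NDUFB, NDUFC, NDUFS and NDUFV series, NDUFAB1, SDHA to SDHD, the UQCR genes, CYC1, COX4 to COX8, and the ATP5F1, ATP5M and ATP5P series). The names matched 130 of the 60234 genes in the expression table. Of these, 45 were annotated pseudogenes and 85 were protein-coding genes, 37 for complex I, 4 for complex II, 9 for complex III, 17 for complex IV and 18 for complex V. NDUFA4 carries a complex I name but was counted with complex IV, to which its protein belongs.

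All libraries came from cardiomyocytes grown from WTC-11, an established human induced pluripotent stem cell line, so a single genetic background is represented. After differentiation with small molecules the cells were kept for 35 days and then exposed passively for 96 h to 2 uM of an ASO (antisense oligonucleotide), a synthetic strand designed to bind its target RNA by base pairing. The controls received a scrambled ASO and the other group an ASO against MYH7B, and no library of untreated cells was analysed here. RNA was extracted with Trizol and selected for poly-A tails. The comparison uses 3 scrambled ASO libraries (replicates 1 to 3) and 3 MYH7B ASO libraries (replicates 2 to 4). MYH7B ASO replicate 1 was left out because its column is out of register with the gene names. Nothing in the labels says that the replicates were separate differentiations, so p-values measure the spread between these libraries, which may be technical.

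Levels are in TPM, the usual abundance scaled by transcript length and relative to all transcripts of the library, so levels of different genes can be set side by side. Sequencing depth cannot be read from TPM and is unknown. MYH7B itself had 23.0, 36.5 and 25.1 TPM with the scrambled ASO and 9.30, 5.65 and 6.31 TPM with the MYH7B ASO. On the log2(TPM + 1) scale this was a change of -1.85 (SE 0.24, limma adjusted p = 0.0109), and without MYH7B ASO replicate 4 the adjusted p was 0.0618. Between 15290 and 16207 genes per library reached 1 TPM, and limma was run on log2(TPM + 1) for the 15988 genes whose mean reached 1 TPM. Of these, 265 had an adjusted p under 0.05 (1.66% of the genes tested) and are called: 29 were higher after knockdown (0.181%) and 236 lower (1.48%). Cardiomyocyte markers were detected throughout, 16 of 16 reaching 1 TPM. Their summed level ran from 12593 to 13701 TPM with the scrambled ASO and from 10064 to 12572 TPM with the MYH7B ASO, and 13 of the 16 had a lower mean in the latter group. Fibroblast markers summed to 2908 to 5255 TPM and to 1366 to 2103 TPM, with 7 of 10 lower and DPT at 0 in every library. Most of this sum came from the collagen genes COL1A1, COL1A2 and COL3A1. PDGFRA (means 23.7 and 36.3 TPM) and TCF21 (means 8.40 and 14.4 TPM) went the other way, higher in every knockdown library than in the controls. Smooth muscle markers summed to 1350 to 1943 TPM and to 850.3 to 1070 TPM, with 6 of 8 lower. Epithelial markers (EPCAM, CDH1, ESRP1 and 3 keratins) summed to 1921 to 2254 TPM and to 2214 to 2694 TPM, with 2 of 6 lower. The 3 keratins made up most of this sum. CDH1 was lower in every knockdown library (means 14.5 and 7.41 TPM), and ESRP1 had a lower mean in overlapping groups. Endothelial markers summed to 17.9 to 22.3 TPM and to 12.1 to 18.3 TPM. VWF and CLDN5 had at most 0.31 and 0.15 TPM, while most of the sum came from KDR, in overlapping groups, and TEK, which was lower in every knockdown library. Pluripotent markers summed to 5.57 to 8.21 TPM and to 4.06 to 7.97 TPM. Hepatic markers summed to 5.19 to 6.78 TPM and to 10.6 to 15.6 TPM without overlap, with APOA1, at 4.03 to 6.39 TPM and 9.37 to 14.8 TPM, making up most of it. The part of these shifts in the levels below was not tested, and in bulk RNA fewer cells of a type and less RNA per cell cannot be told apart.

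The nuclear subunit genes as a whole were abundant and close in level between the groups. Summed over the 85 genes they took 18179, 19578 and 21140 TPM in scrambled ASO replicates 1 to 3. With the MYH7B ASO they took 21133, 21192 and 20292 TPM in replicates 2 to 4, inside the range of the controls for replicates 2 and 4 and just above it for replicate 3. The means were 19632 ± 1481 TPM and 20872 ± 504 TPM (SD, n = 3 each). Scrambled ASO replicate 1 set the low end: it held the lowest of the 6 values for 34 of the 80 tested members. MYH7B ASO replicate 2 held the highest value for 29 of the 80. Mitochondrially encoded transcripts of all kinds filled 27.4% to 33.2% of TPM in the scrambled ASO libraries and 31.2% to 33.6% in the MYH7B ASO libraries, and nuclear genes share the rest. As a share of the TPM of nuclear genes, the subunits took 2.71%, 2.93% and 2.91% with the scrambled ASO. They took 3.14%, 3.08% and 3.06% with the MYH7B ASO, so on this scale the groups did not overlap. The ratio of the mean shares was 1.08. A comparison of 3 libraries with 3 cannot go below p = 0.1 in an exact permutation test, so no p is given for sums and ratios. In MYH7B ASO replicate 1, once its column was put in register, the share was 2.04%, below all 6 other libraries.

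**Figure D1:**
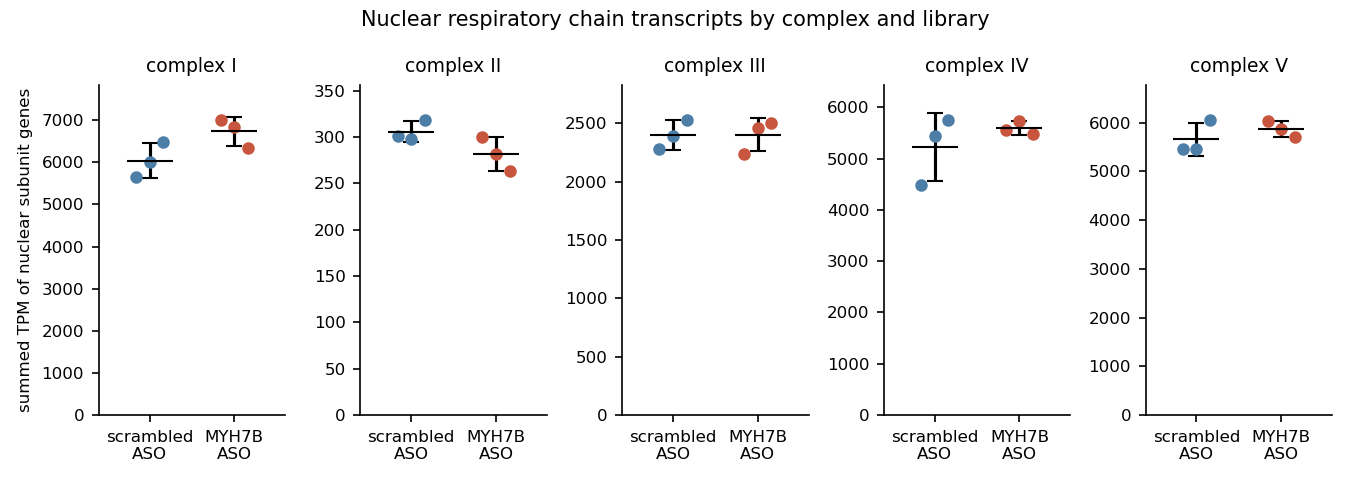
Summed TPM of the nuclear subunit genes of each complex (vertical axes, from 0) in 3 scrambled ASO libraries (blue) and 3 MYH7B ASO libraries (red), with group mean and SD. The groups overlap in all 5 complexes; complex I has the widest gap, with means of 6040 and 6732 TPM.

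By complex, the sums moved little. Complex I genes summed to 5644, 5998 and 6479 TPM with the scrambled ASO and to 7005, 6842 and 6349 TPM with the MYH7B ASO, a ratio of means of 1.11 in overlapping groups. Complex II had the opposite sign, with 306 ± 11.1 TPM and 282 ± 18.7 TPM (SD, n = 3 each) and a ratio of 0.921. Complex III was level, at 2400 ± 126 TPM and 2401 ± 143 TPM (SD, n = 3 each). Complex IV had 5228 ± 655 TPM and 5591 ± 137 TPM (SD, n = 3 each), where scrambled ASO replicate 1, at 4495 TPM, lay below the other 5 libraries, and without it the log2 difference was -0.00059 in place of 0.10. Complex V had 5658 ± 347 TPM and 5866 ± 166 TPM (SD, n = 3 each). The groups overlapped in all 5 complexes, as the plot of summed TPM by complex shows.

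Gene by gene, no subunit was called: 0 of 80 tested members had a limma adjusted p under 0.05, where 1.66% of all genes did (0.181% higher and 1.48% lower), and the lowest adjusted p among them was 0.139. At an unadjusted p under 0.05 there were 7 higher and 2 lower members, against 4.67% and 10.6% of all genes tested. The log2 change was above 0 for 54 of the 80 members, against 45.2% of all genes tested, and its median was 0.07, against -0.04 over all genes. This gap depended on the scaling: with quantile normalization the medians were 0.070 for the members and 0.037 over all genes. In the fit reported, medians were 0.13 for complex I, -0.04 for complex II, 0.03 for complex III, 0.06 for complex IV and 0.08 for complex V. The standard errors of the members ran from 0.10 to 0.44 with a median of 0.15, so a change near the median of the members was smaller than its standard error in a typical gene. The groups did not overlap for 13 of the 80 members that were higher with the MYH7B ASO, against 7.11% of all genes tested. For 4 of the 80 they did not overlap with lower values, against 14.1% of all genes tested.

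**Figure D2:**
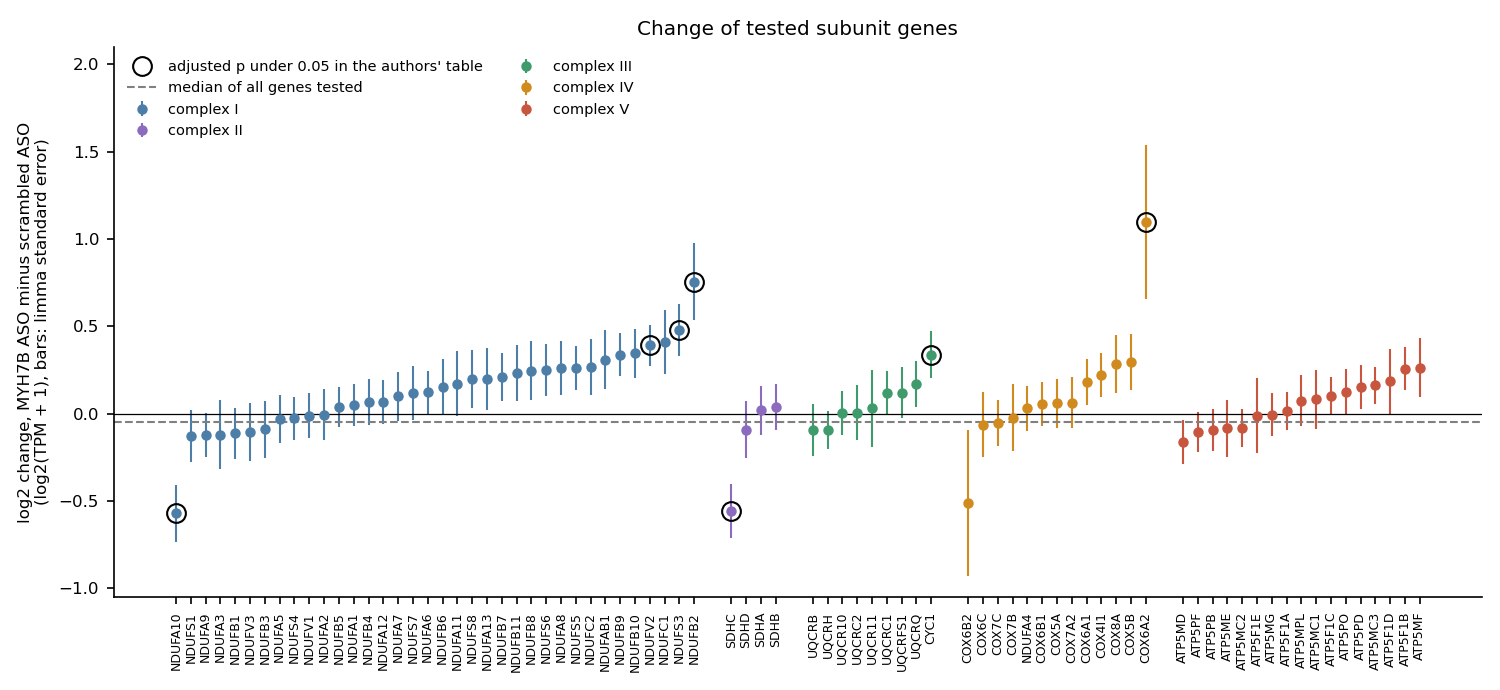
Log2 change on the log2(TPM + 1) scale (vertical axis, points with limma standard errors) of the tested subunit genes except 1 that is not shown, sorted within each complex; black rings mark the 7 genes with an adjusted p-value under 0.05 in the authors' deposited table, and the dashed line is the median of all genes tested. Most points cluster just above 0; NDUFA10, SDHC and COX6B2 lie far below, at -0.57, -0.55 and -0.51, and NDUFB2 and COX6A2 far above, at 0.76 and 1.10.

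The authors' deposited table gives a second reading of the same experiment, with shrunken log2 fold changes and adjusted p-values for 80 of the 85 genes. It is not independent of the TPM, and which libraries entered it is not given in the sources used here. There, 7 of the 80 had an adjusted p-value under 0.05, against 8.71% of the 15527 genes that carry an adjusted p-value in the authors' deposited table, so the share in both directions together was near the background. Of the 80, 5 were higher, against 3.02% of those 15527 genes, and 2 lower, against 5.69%. The 5 were NDUFB2, NDUFS3, NDUFV2, CYC1 and COX6A2, and the 2 were NDUFA10 and SDHC. The log2 fold change in the authors' deposited table was above 0 for 64 of the 83 subunit genes listed, with a median of 0.12. Over all genes listed there it was above 0 for 12431 of 25374, with a median of -0.0046.

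Complex I is the entry point for electrons from NADH, and part of its nuclear genes encode the core subunits that carry the flavin and the iron-sulfur clusters or bind the quinone. Among these, NDUFS3 (chromosome 11, positions 47565336 to 47584562), a core subunit of the arm that reaches the quinone site, had 72.9, 82.3 and 93.0 TPM with the scrambled ASO. It had 122, 124 and 101 TPM with the MYH7B ASO, every library above the controls. The mean went from 82.7 ± 10.1 to 116 ± 12.6 TPM (SD, n = 3 each), a log2 change of 0.48 (SE 0.15, limma adjusted p = 0.177). In the authors' deposited table NDUFS3 stood at 0.50 (adjusted p-value 0.0109). NDUFS3 overlaps PTPMT1 on the same strand and CELF1 and KBTBD4 on the other, so part of its reads may be shared.

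NDUFV2 (chromosome 18, positions 9102630 to 9134345), which binds an iron-sulfur cluster at the NADH end, showed tight replicates. Its level was 95.6, 92.8 and 99.6 TPM with the scrambled ASO and 124, 132 and 123 TPM with the MYH7B ASO. These groups stand well apart, at 1.32 times the control mean, a log2 change of 0.39 (SE 0.12, limma adjusted p = 0.161). For NDUFV2 the authors' deposited table listed 0.42 (adjusted p-value 0.0462). In NDUFV1, NDUFS1, NDUFS7 and NDUFS8, which also encode core subunits, the groups overlapped. NDUFV1, the flavin-binding subunit, had 132 ± 6.56 and 131 ± 12.3 TPM (SD, n = 3 each), and NDUFS1, with the largest number of iron-sulfur clusters, had 49.4 ± 5.82 and 45.1 ± 4.26 TPM (SD, n = 3 each).

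The 30 accessory subunits of complex I, which surround the core and are needed for its assembly and stability, held both the most positive and the most negative change of the complex. NDUFB2 (chromosome 7, positions 140690777 to 140722790), in the membrane arm, had 189, 135 and 209 TPM with the scrambled ASO and 390.2, 257 and 259 TPM with the MYH7B ASO. All 3 knockdown libraries were above the controls, replicate 2 by the widest margin. Its log2 change was 0.76 (SE 0.22, limma adjusted p = 0.152). NDUFB2 was at 0.70 (adjusted p-value 0.0032) in the authors' deposited table. ADCK2, on the same strand, and BRAF, on the other, overlap its annotated span.

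NDUFA10 (chromosome 2, positions 239892450 to 240025402), a membrane arm subunit related to nucleoside kinases, went the other way. It had 120.1, 146 and 165 TPM with the scrambled ASO and 101, 105 and 82.6 TPM with the MYH7B ASO. Every knockdown library lay below every control, at 0.669 times the control mean. The log2 change was -0.57 (SE 0.16, limma adjusted p = 0.149). NDUFA10 stood at -0.47 (adjusted p-value 0.0186) in the authors' deposited table. The other accessory gene whose groups did not overlap in this direction was NDUFA9, with 62.2 ± 4.23 and 57.1 ± 1.22 TPM (SD, n = 3 each), a difference of -0.12 on the log2 scale.

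Further accessory genes stood higher without overlap and without a call. NDUFB10 had 156 ± 16.6 and 198 ± 23.3 TPM, NDUFB9 244 ± 19.5 and 309 ± 24.5 TPM, and NDUFC1 70.2 ± 16.1 and 91.7 ± 1.598 TPM (SD, n = 3 each). NDUFS5, the most abundant complex I transcript, had 640.3, 686 and 751 TPM with the scrambled ASO and 929, 814 and 758 TPM with the MYH7B ASO. Its groups touch almost end to end, with a log2 change of 0.26 (limma adjusted p = 0.368). Levels within complex I spanned a wide range although each subunit occurs once per complex, apart from NDUFAB1, the acyl carrier protein, which occurs at more than one site. Means over the 6 libraries ran from 18.8 TPM for NDUFV3 to 763 TPM for NDUFS5, with a median of 123 TPM.

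**Figure D3:**
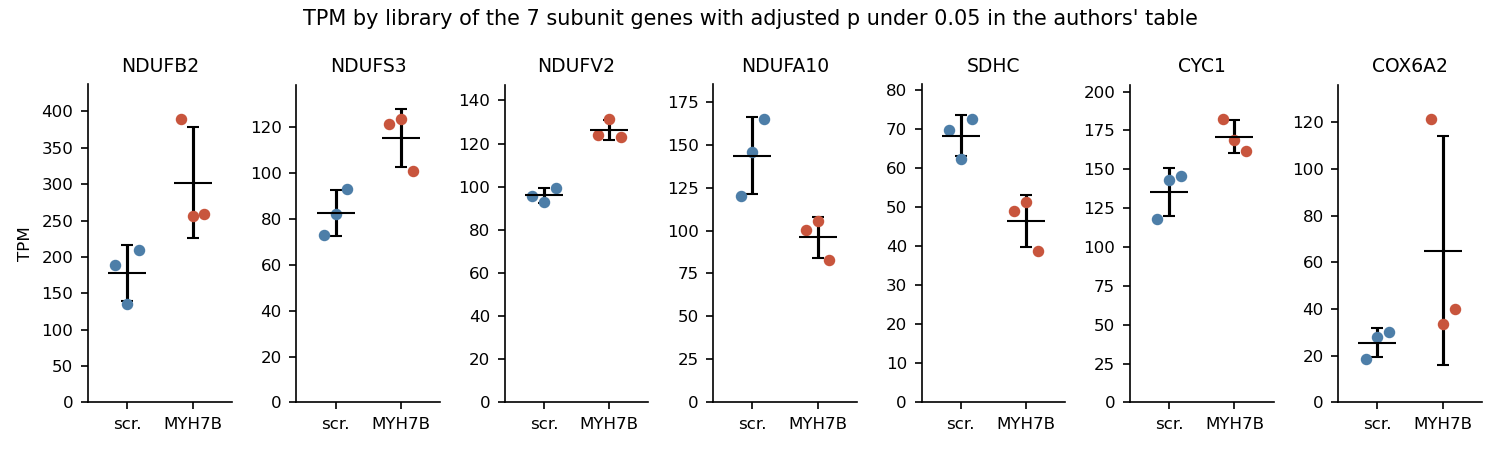
TPM (vertical axes, from 0) of the 7 subunit genes with an adjusted p-value under 0.05 in the authors' deposited table, in 3 scrambled ASO libraries (scr., blue) and 3 MYH7B ASO libraries (red), with mean and SD. The groups do not overlap in any of the 7; in COX6A2 one MYH7B ASO library, at 122 TPM, stands far above the other 2.

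Complex II, succinate dehydrogenase, is the one complex encoded wholly in the nucleus and also works in the tricarboxylic acid (TCA) cycle. SDHC (chromosome 1, positions 161314257 to 161375340), one of its membrane anchors, had 69.7, 62.4 and 72.6 TPM with the scrambled ASO and 49.0, 51.3 and 38.8 TPM with the MYH7B ASO. The groups did not overlap, and the mean with the MYH7B ASO was 0.680 of the control mean. The log2 change was -0.55 (SE 0.15, limma adjusted p = 0.139, the lowest of the 80 tested subunit genes). The authors' deposited table put SDHC at -0.45 (adjusted p-value 0.0299). In the partner genes the groups overlapped. SDHA, the flavoprotein, had 86.8, 109 and 90.4 TPM and then 103, 88.4 and 98.2 TPM. SDHB, the iron-sulfur subunit, had 64.6, 66.5 and 73.1 TPM and then 74.7, 70.9 and 64.2 TPM. The other anchor, SDHD, had 74.0 ± 12.2 and 68.9 ± 6.08 TPM (SD, n = 3 each). The difference between SDHC and its partners was not itself tested.

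Complex III passes electrons from ubiquinol to cytochrome c. CYC1 (chromosome 8, positions 144095027 to 144097525), which encodes cytochrome c1, had 118, 143 and 145 TPM with the scrambled ASO and 183, 169 and 162 TPM with the MYH7B ASO. The groups did not overlap. Its log2 change was 0.34 (SE 0.13, limma adjusted p = 0.280), and in the authors' deposited table it was 0.37 (adjusted p-value 0.0448). In the other 8 genes of the complex the groups overlapped. UQCRH, the hinge protein and the most abundant of them, had 715, 767 and 749 TPM and then 666, 689 and 739 TPM. Its near-copy UQCRHL, listed at 0.17 to 1.24 TPM, could take some of these reads. UQCRB, a ubiquinone-binding subunit, had 543, 536 and 640.3 TPM and then 447, 595 and 579 TPM, the most negative change of the complex at -0.09. UQCRFS1, the Rieske iron-sulfur protein, had 45.8 ± 4.64 and 49.9 ± 5.14 TPM (SD, n = 3 each), the lowest mean level of the complex.

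Complex IV, cytochrome c oxidase, is the complex with tissue isoforms. COX6A2 and COX7A1 are the isoforms of heart and skeletal muscle, and COX6A1 and COX7A2 the ubiquitous ones. COX4I2 is an oxygen-responsive isoform of COX4I1, COX6B2 a testis isoform of COX6B1, and NDUFA4L2 a hypoxia-associated paralog of NDUFA4.

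To show how the heart isoform and its ubiquitous partner differ at their starts, the 250 bases before the RefSeq start of each gene are given below, 5′ to 3′ on the gene's strand, from the RefSeq table on GRCh38.p14. Capitals mark matches on either strand to a core of the NRF1 site (CGCATGCGC), a core of the ETS site (CCGGAAG), a YY1 core (AAGATGGC) and a muscle E-box (CAGCTG). No match overlapped another in these windows.
COX6A1, plus strand, chr12:120437863-120438112: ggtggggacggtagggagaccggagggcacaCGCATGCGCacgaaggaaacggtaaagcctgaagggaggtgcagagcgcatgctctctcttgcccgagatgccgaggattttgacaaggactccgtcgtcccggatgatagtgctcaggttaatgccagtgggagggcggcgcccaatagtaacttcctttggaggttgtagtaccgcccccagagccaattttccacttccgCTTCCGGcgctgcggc
COX6A2, minus strand, chr16:31428361-31428610: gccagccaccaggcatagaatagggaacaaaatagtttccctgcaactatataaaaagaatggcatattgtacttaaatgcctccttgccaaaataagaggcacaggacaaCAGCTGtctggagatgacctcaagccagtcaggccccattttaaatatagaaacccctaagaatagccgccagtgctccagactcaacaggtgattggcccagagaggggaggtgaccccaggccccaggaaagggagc

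Of the cores and the E-box searched for, the COX6A1 window held an NRF1 core and an ETS core, and the COX6A2 window held only a muscle E-box. Other motifs were not searched for. NRF1 and ETS-family GABP are known regulators of many respiratory chain genes. Over the 66 subunit genes with a promoter in the table, the NRF1 core stood in 9 (13.6%, against 1.78% of all 27305 promoters) and the ETS core in 16 (24.2%, against 8.82%). The YY1 core stood in 1 (1.52%, against 1.37%) and the muscle E-box in 10 (15.2%, against 13.8%). Matches are counts of letters and not sites of binding. In complex V 4 of 11 windows held the NRF1 core, among them those of ATP5ME, ATP5MC2 and ATP5F1C, and in complex I 3 of 32 did, those of NDUFB4, NDUFS6 and NDUFS7. None of the 9 genes with the NRF1 core had an unadjusted limma p under 0.05. NDUFS3, whose window held the ETS core, had one of 0.0115. A relation between motif and change was not tested.

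In the RNA, the ubiquitous isoforms dominated in both groups. COX6A2 (chromosome 16, positions 31427731 to 31428428) had 18.6, 27.9 and 30.3 TPM with the scrambled ASO and 122, 33.5 and 40.2 TPM in MYH7B ASO replicates 2 to 4. All 3 knockdown libraries were above the controls, but replicate 2 alone stood far from the rest. The log2 change was 1.10 (SE 0.44, limma adjusted p = 0.287), and without MYH7B ASO replicate 2 it was 0.53. COX6A2 was at 0.77 (adjusted p-value 0.0287) in the authors' deposited table. MYH7B ASO replicate 1 had 2.17 TPM of COX6A2 once in register, below every control, and with it added the log2 change was 0.06. COX6A1 had 344, 439 and 433 TPM and then 484, 442 and 446 TPM, just clear of the controls, a change of 0.18 (limma adjusted p = 0.578). COX6A2 thus made up 5.13%, 5.98% and 6.54% of the pair with the scrambled ASO and 20.1%, 7.04% and 8.27% with the MYH7B ASO. The log2 ratio of the pair was -3.95 ± 0.17 and -3.04 ± 0.92 (SD, n = 3 each), in groups that did not overlap, and the difference of 0.92 was 0.39 without MYH7B ASO replicate 2.

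**Figure D4:**
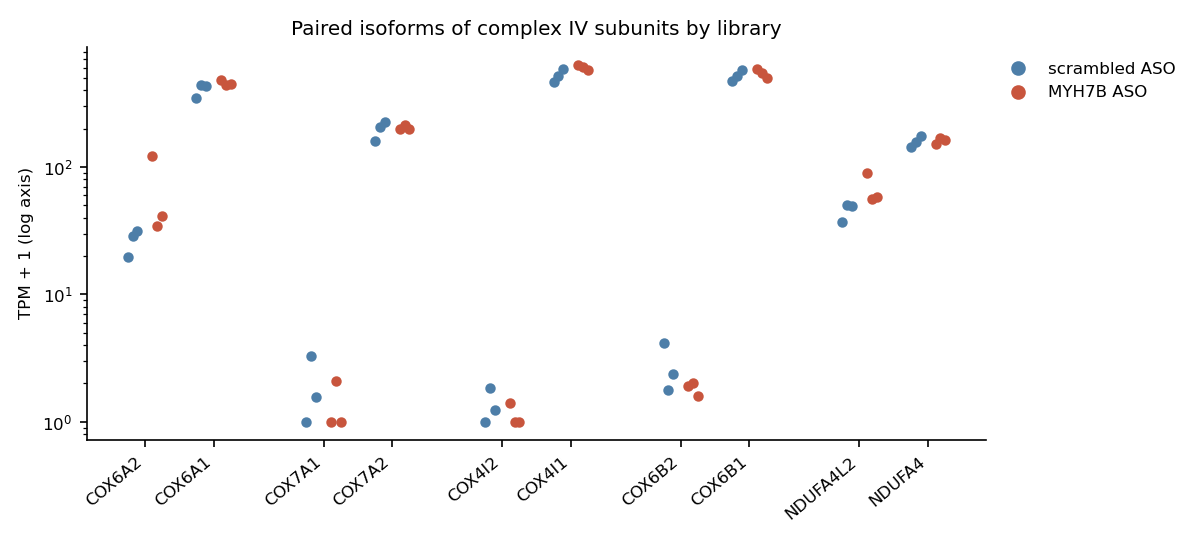
TPM + 1 (logarithmic vertical axis) of 5 isoform pairs, each with the muscle or other restricted isoform on the left and the ubiquitous one on the right, in scrambled ASO (blue) and MYH7B ASO (red) libraries. COX7A1, COX4I2 and COX6B2 lie near the floor in every library, and COX6A2 reaches 122 TPM in one.

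COX7A1, the other muscle isoform, was close to 0: it had 0, 2.30 and 0.57 TPM with the scrambled ASO and 0, 1.09 and 0 TPM with the MYH7B ASO. Its partner COX7A2 had 160.1, 203 and 223 TPM and then 196, 212 and 199 TPM. COX4I2 did not exceed 0.84 TPM in any library, while COX4I1, the ubiquitous form, had 466, 515 and 584 TPM and then 633, 614 and 575 TPM. In these pairs the groups overlapped. COX6B2 had 3.15, 0.79 and 1.36 TPM and then 0.90, 1.01 and 0.59 TPM, the most negative change of the complex at -0.51 but with a standard error of 0.42. COX6B1 had 476, 518 and 576 TPM and then 589, 548 and 496 TPM. NDUFA4L2, which lies outside the naming rule, had 36.3, 49.1 and 48.1 TPM and then 88.6, 54.9 and 56.8 TPM, higher in every knockdown library and again highest in replicate 2. Its log2 change was 0.55 (limma adjusted p = 0.276), and it stood at 0.56 in the authors' deposited table (adjusted p-value 0.0247). Without MYH7B ASO replicate 2 the log2 change was 0.33. NDUFA4L2 overlaps SHMT2 on the opposite strand. NDUFA4 had 142, 156 and 174 TPM and then 151, 167 and 163 TPM.

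Of the complex IV subunits outside the isoform pairs above, COX7C, a small membrane subunit, was the most abundant of the 85 nuclear genes, with 1482 ± 134 and 1433 ± 175 TPM (SD, n = 3 each) in overlapping groups. COX8A had 576, 882 and 787 TPM and then 980, 868 and 853 TPM, with scrambled ASO replicate 1 again the lowest. COX5B had 255 ± 48.0 and 311 ± 32.8 TPM and COX5A 429 ± 66.8 and 444 ± 13.3 TPM (SD, n = 3 each). COX7B2 was listed at 0 in all 6 libraries, and COX8C, a testis isoform of COX8A, had 0.26 TPM in 1 library and 0 in the other 5.

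Complex V, ATP synthase, had changes from -0.16 for ATP5MD, a small membrane subunit, to 0.26 for ATP5MF, subunit f of the membrane part. ATP5MD had 521, 484 and 548 TPM and then 523, 413 and 457 TPM. ATP5MF had 296, 269 and 410.4 TPM and then 373, 415 and 366 TPM, and a read-through transcript with PTCD1 shares its sequence. The groups overlapped in both, and leaving out 1 library moved the log2 change of ATP5MD between -0.25 (without MYH7B ASO replicate 2) and -0.080 (without MYH7B ASO replicate 3). That of ATP5MF moved between 0.14 and 0.44 (without scrambled ASO replicates 2 and 3). The catalytic subunit ATP5F1B had 570.1, 625 and 554 TPM with the scrambled ASO and 781, 652 and 662 TPM with the MYH7B ASO. Its groups did not overlap, with a log2 change of 0.26 (limma adjusted p = 0.367). Its partner in the catalytic head, ATP5F1A, had 506 ± 21.4 and 512 ± 28.95 TPM (SD, n = 3 each). The central stalk subunit ATP5F1C had 281 ± 11.3 and 302 ± 7.62 TPM, and ATP5MC3, one of 3 genes for the identical membrane ring subunit c, had 387 ± 7.35 and 434 ± 8.01 TPM (SD, n = 3 each), both without overlap. Of the other genes for subunit c, ATP5MC2 was lower without overlap, at 434 ± 21.7 and 410.1 ± 1.77 TPM (SD, n = 3 each), and ATP5MC1 had 102 ± 19.6 and 107 ± 8.16 TPM (SD, n = 3 each). ATP5ME, a membrane subunit and the most abundant transcript of the complex, had 601, 594 and 808 TPM and then 550.1, 713 and 619 TPM, in overlapping groups.

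The filter of a mean of at least 1 TPM removed 5 of the 85 genes: COX7A1, COX4I2, COX7B2, COX8C and ATP5MGL, a retained copy of ATP5MG with at most 1.20 TPM. All 45 pseudogenes fell below it as well. Of these, 37 were listed at 0 in all 6 libraries, and the highest value in any was 3.30 TPM.

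Other genes of the pathway were read from lists of assembly factors, coenzyme Q synthesis, the TCA cycle, regulators and mitochondrially encoded subunits. None of the members of these lists was called by limma. At an unadjusted p under 0.05 there were 10 of 52 assembly factors (5 in each direction), 3 of 17 TCA cycle genes, 3 of 17 regulators, 2 of 13 coenzyme Q synthesis genes and 0 of 13 mitochondrially encoded subunits, against 15.2% of all genes tested. Mitochondrially encoded subunits had a median log2 change of 0.02 (13 genes), and their sum was 270513 ± 23287 TPM and 281490 ± 10025 TPM (SD, n = 3 each). Assembly factors, proteins that build the complexes without remaining in them, had a median of -0.03 over 52 genes, 25 above 0 and 27 below. TCA cycle genes had a median of 0.08 over 17, coenzyme Q synthesis genes 0.05 over 13, and regulators of mitochondrial biogenesis -0.14 over 17, 13 of them below 0.

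**Figure D5:**
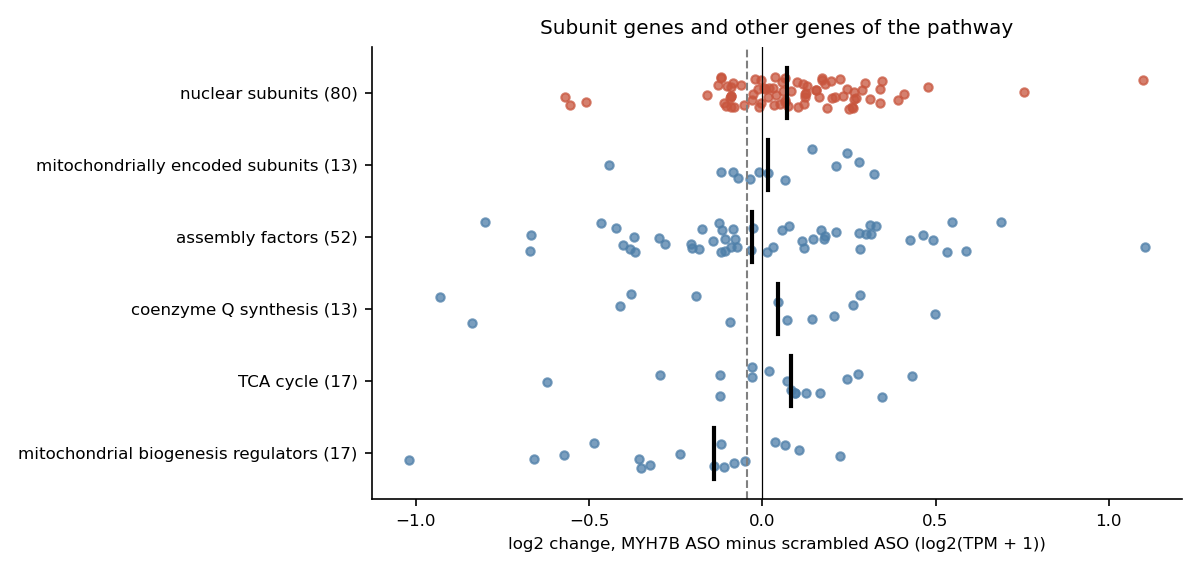
Log2 change on the log2(TPM + 1) scale (horizontal axis) of each tested gene in the nuclear subunit set and 5 other lists of the pathway, with the number of genes in brackets; black bars are list medians and the dashed line is the median of all genes tested. The subunit genes form the densest cluster, with a median of 0.07, and the regulators have a median of -0.14.

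Among the regulators, PPARGC1A, which encodes the coactivator PGC-1alpha that drives expression of respiratory chain genes, had 11.4, 16.3 and 16.2 TPM with the scrambled ASO and 5.49, 6.97 and 7.58 TPM with the MYH7B ASO. The groups did not overlap. Its log2 change was -1.02 (SE 0.20, limma adjusted p = 0.0541), and the limma adjusted p ranged from 0.0338 to 0.720 over the alternatives, under 0.05 only with genes of a mean of at least 5 TPM. The log2 change was negative in all of these alternatives. PPARGC1A was at -0.86 (adjusted p-value 3.1e-04) in the authors' deposited table. PPARA, a nuclear receptor for fatty acids, had 12.5 ± 0.685 and 7.53 ± 0.398 TPM (SD, n = 3 each), a log2 change of -0.66 (limma adjusted p = 0.0911), and stood at -0.57 (adjusted p-value 0.0132) in the authors' deposited table. The authors' deposited table called 3.02% of its 15527 genes with an adjusted p-value higher and 5.69% lower. Of 17 regulators it called 0 higher and 2 lower, PPARGC1A and PPARA. Of 52 assembly factors it called 3 higher (SDHAF2, COX18 and COX20) and 1 lower (COX15). SDHAF2, which attaches the flavin to SDHA, had 11.1, 13.4 and 15.4 TPM and then 18.6, 47.7 and 28.7 TPM, a log2 change of 1.11 (limma adjusted p = 0.142). COX15, needed for the heme of complex IV, had 22.02 ± 0.792 and 12.4 ± 2.99 TPM (SD, n = 3 each), a log2 change of -0.80 (limma adjusted p = 0.0867). COX18 and COX20, both needed to insert or mature a core complex IV subunit, had log2 changes of 0.69 and 0.55. Of 13 coenzyme Q synthesis genes the authors' deposited table called 1 higher (COQ8A) and 1 lower (PDSS2). Of 17 TCA cycle genes it called 0 higher and 1 lower (OGDH). PDSS2, which builds the isoprenoid tail, had 7.12 ± 0.446 and 3.28 ± 0.520 TPM, and OGDH, of the oxoglutarate dehydrogenase complex, 40.01 ± 6.50 and 25.5 ± 2.29 TPM (SD, n = 3 each). The mobile carrier CYCS, cytochrome c, had 119 ± 7.21 and 106 ± 14.2 TPM (SD, n = 3 each).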

How the data were processed

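Expression was analysed in 6 of 7 libraries. The deposited table holds TPM computed by the authors, and every column sums to 1000000 TPM. The submitters' processing notes name DESeq2 and GRCh38.p13; aligner, quantifier and annotation are not given in the sources used here. The authors' deposited comparison table holds, per the file headers, a mean normalized count (a signal over libraries). Its other deposited columns are a log2 fold change that the authors shrank, the standard error of that change, the test's score, and p-values before and after adjustment.

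All genes whose mean over the 6 libraries reached 1 TPM were fitted with limma 3.58.1 in R 4.3.3 on log2(TPM + 1) (lmFit, eBayes with trend, no covariate, Benjamini-Hochberg over all genes tested). The pseudocount understates changes of low genes. The script was tested on simulated data. Positions and gene types are from GENCODE 29 (GRCh38), which may differ from the authors' annotation. Of the members, 1 is counted but not reported by name here. Promoters from RefSeq matched 66 of 85 genes.

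Named members were those called by limma or in the authors' table, the isoform pairs, the most abundant and most changed gene of each complex, those below the filter, and pathway genes called in the authors' table; other members are named where their groups did not overlap or as partners, chosen after their values were seen. The members and lists were chosen with earlier results of these data known. Tables were made with pandas 2.3.3 and numpy 2.4.6 under Python 3.11.15, plots with matplotlib 3.10.9. Alternatives varied the pseudocount, filter, scaling, variance model, replicate block and the libraries used.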

Additional observations from a re-analysis of the deposited data

How the results depend on the processing

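No subunit gene was called by limma in the fit reported or under any alternative run. Their lowest adjusted p was 0.139 as reported, 0.0525 with median ratios between libraries and 0.0556 with quantile normalization. Members with an unadjusted p under 0.05 numbered 9, 20 and 15 in these fits, against 2435, 2814 and 2782 of all genes tested. With the block by description number the lowest adjusted p was 0.722, with 1 member at an unadjusted p under 0.05. The number of genes called over the whole table moved from 265 to 40 with no filter except a mean above 0, to 150 without the variance trend and to 170 with MYH7B ASO replicate 1 added in register. It ranged from 53 (without MYH7B ASO replicate 4) to 149 (without scrambled ASO replicate 2) when 1 library was left out, with 97 and 133 without scrambled ASO replicates 1 and 3 and 107 and 116 without MYH7B ASO replicates 2 and 3. The replicate block, which pairs 2 libraries per group, left 0 genes called by limma with title numbers (1718 with an unadjusted p under 0.05) and 0 with description numbers (1096). A block for each number leaves little from which to estimate the spread, so these counts cannot tell an effect of pairing from lost power. Deviations of libraries that share a number correlated at 0.08 and 0.11 by title and at -0.07 and -0.04 by description, and no label ties a number to a shared culture. The median change of the members was 0.07 as reported. It was 0.13 with median ratios between libraries, 0.04 without scrambled ASO replicate 1 and 0.0042 with MYH7B ASO replicate 1. Members above 0 then numbered 62, 44 and 41. The median over all genes tested moved as well, from -0.044 to 0.0054, -0.075 and -0.055. The members minus all genes gave 0.115 as reported and 0.122, 0.112 and 0.059 in these fits. With quantile normalization this difference was 0.034. With that replicate the log2 differences were -0.26 for complex II, -0.078 for complex III (0.00033 as reported), -0.0018 for complex IV (0.10 as reported), -0.051 for complex V, -0.033 for the share of nuclear TPM (0.12 as reported) and -0.044 for the COX6A2 to COX6A1 ratio (0.92 as reported). The block by description number gave 0.071 for the share of nuclear TPM. A pseudocount of 0.1 gave -1.32 for COX7A1 to COX7A2 and -1.11 for COX4I2 to COX4I1. Genes with changes near 0 turned sign: COX6B1 (-0.068 with the block by description number), COX7A2 (-0.062 and -0.050 with the blocks by title and description number, -0.019 with MYH7B ASO replicate 1), COX7C (0.0045 with median ratios, 0.026 with quantiles), NDUFA4 (-0.0059 with quantiles, -0.051 with the title block, -0.18 with MYH7B ASO replicate 1), SDHA (-0.058, -0.093 and -0.21 with the title block, the description block and that replicate), SDHB (-0.046 and -0.18 with the description block and that replicate) and UQCRB (0.0025 with the description block). Leaving out 1 library gave ATP5ME -0.18 to 0.062, COX6B1 -0.0099 to 0.13, COX7A2 -0.073 to 0.17, COX7C -0.13 to 0.050, NDUFA4 -0.040 to 0.10, SDHA -0.045 to 0.12, SDHB -0.0098 to 0.098 and UQCRB -0.17 to 0.039. Without scrambled ASO replicate 1 the change of COX6A1 was 0.067 (0.18 as reported) and that of COX4I1 0.14 (0.22 as reported), and COX6B2 fell below the filter. Without scrambled ASO replicate 2 COX6B2 was at -0.78 (-0.51 as reported). Leaving out each library in turn gave 0.028 to 0.10 for complex V. Without MYH7B ASO replicate 2 the NDUFA4L2 to NDUFA4 ratio differed by 0.26 (0.52 as reported). The cause of these moves was not tested. The limma adjusted p of MYH7B was above 0.05 with no filter (0.0779), with MYH7B ASO replicate 1 (0.0525) and with the blocks by title (0.331) and description number (0.720). NDUFB2, NDUFS3, NDUFV2, CYC1, COX6A2, NDUFA10 and SDHC kept their sign under every alternative run.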

Other observations

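MYH7B ASO replicate 1 was left out of the comparison of the 6 libraries and entered it as an alternative only. Its column has 58721 values in 60234 rows and, in deposited order, a median Pearson correlation across genes of 0.408 with the other 6 libraries; with the sorted GENCODE 29 identifiers it was 0.955. In that order it had 285 TPM of NDUFB2, 98.0 TPM of NDUFS3 and 147 TPM of CYC1, each above all 3 scrambled ASO libraries. Its 107 TPM of NDUFA10 and 56.3 TPM of SDHC were below all 3, as was its 2.05 TPM of PPARGC1A. NDUFV2, at 94.6 TPM, was inside their range and COX6A2, at 2.17 TPM, below it. Mitochondrially encoded genes took 17.2% of its TPM. Its levels carry whatever difference in annotation the other row order reflects.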
